A study of Mus musculus with 6 samples.

Results

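CD103 and KLRG1 are surface receptors for E-cadherin found on regulatory T cells (Tregs), a CD4 lineage of suppressive cells defined by the transcription factor Foxp3. CD103 is an integrin and KLRG1 a lectin-like receptor. The genes described here are Itgae and Itgb7, which encode the alpha E and beta 7 chains of that integrin, Klrg1, Epcam, and Haspin, a gene that lies inside Itgae on the opposite strand. These 5 genes of the 55840 in the deposited table were chosen by name, and the choice was made with their read counts in WT and Exon2KO libraries known, so their difference between the genotypes is given as a description and is not tested. Tregs of spleen and lymph nodes were profiled by RNA sequencing in 2 groups of mice, WT and Exon2KO, with 3 libraries labelled as biological replicates in each. Exon2KO Tregs carry the form of Foxp3 that the series title calls Foxp3Δ2, and WT Tregs carry the intact gene. The labels used here give no strain, age, sex or treatment, and do not say whether a library came from 1 mouse or from pooled mice. Libraries are named by genotype and by the number in their column names, 2, 6 or 20.

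Alpha E pairs only with beta 7, whereas beta 7 also pairs with alpha 4 to form the gut-homing integrin that binds MAdCAM-1. The alpha E beta 7 heterodimer binds E-cadherin, the adhesion protein of epithelial cells, and it marks Tregs and other lymphocytes that are held in or near epithelia, where TGF-beta is known to induce Itgae. KLRG1 is an inhibitory receptor that recognises classical cadherins, carries an inhibitory tyrosine motif in its cytoplasmic tail, and marks differentiated effector Tregs. EpCAM is a homophilic adhesion protein of epithelia, which is not a cadherin and is also found on some leukocytes. Haspin is a kinase that phosphorylates histone H3 at mitotic centromeres.

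Total counts ran from 17998216 to 21003496 per library, and 3 counts, taken as the lowest level a library can show, equalled 0.143 to 0.167 CPM of the column totals, a floor that covers counting error only. CPM is the count as a rate of the library size, and all other CPM use sizes scaled by edgeR's TMM. Summed over 6 Treg markers, all of them detected, levels were 2999 to 3477 CPM in WT and 2767 to 3119 CPM in Exon2KO libraries. The sum joins genes that differ: the log2 fold change was -0.85 for Ctla4, -0.66 for Ikzf2 and -0.52 for Il2ra, all called lower (edgeR adjusted p = 0.00677, 0.024 and 0.0429), and 0.016 to 0.22 for Cd3e, Cd4 and Foxp3, which were not called. With 1 library left out, Ctla4 lost its call only without Exon2KO 2 (adjusted p = 0.0566), while Ikzf2 and Il2ra kept theirs only without Exon2KO 20 (adjusted p up to 0.122 and 0.172). Il2ra also lost its call with limma-voom (0.0525), without robust estimation (0.0573) and without both libraries numbered 20 (0.0561). Foxp3 itself stood at 712 CPM in WT and 812 CPM in Exon2KO libraries (mean of 3, adjusted p = 0.693), and a whole-gene count cannot show whether exon 2 is missing. Libraries numbered 20 stood apart from the others, and 10.4% of the 14919 tested genes differed between column numbers, so that values are also given without both of them where this matters. Of the tested genes, 2.33% were called between genotypes (348, edgeR quasi-likelihood test, adjusted p under 0.05), 1.58% as lower in Exon2KO and 0.757% as higher.

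All 5 genes passed the filter on low counts. Itgae, Klrg1, Epcam and Haspin were each among the 1.58% of genes called lower in Exon2KO Tregs, as the choice of genes fixes, and Itgb7 was not called. The same 4 genes were among the 9.32% of tested genes whose 3 Exon2KO libraries all lay below the 3 WT libraries, while those of Itgb7 overlapped. In a fit that blocks on the column number, 5.79% of genes were called lower and 3.93% higher, and 4 of the 5 genes were again lower. Nothing is read from these counts, because they come from the contrast the genes were chosen on.

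**Figure D1:**
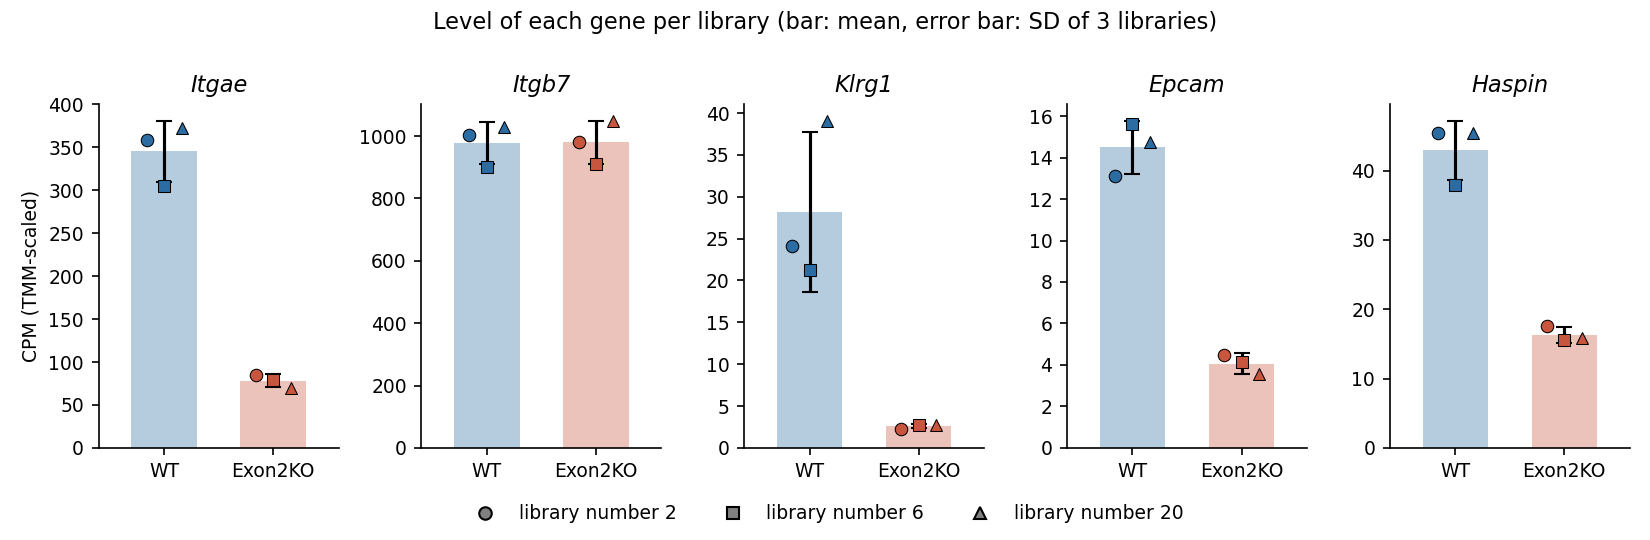
Level of each gene in CPM (linear axes that start at 0, one panel per gene) in 3 WT and 3 Exon2KO libraries; each point is a library, its shape gives the column number, and bars give the mean and SD. WT and Exon2KO points are separate for Itgae, Klrg1, Epcam and Haspin and overlap for Itgb7, and WT 20 is the highest Klrg1 point at 39.1 CPM.

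Itgae (ENSMUSG00000005947, GRCm38 chr11:73090583-73147446, plus strand) encodes alpha E, the chain that gives CD103 its specificity for E-cadherin. Its counts were 6685, 5540 and 7936 in WT 2, 6 and 20, against 1537, 1545 and 1247 in Exon2KO 2, 6 and 20. As CPM these were 359, 305 and 372 in WT, against 85.4, 79.3 and 70.2 for Exon2KO. The lowest WT library therefore stayed well above the highest Exon2KO library, and no group was spread by more than 1.22 times from its lowest to its highest library. The mean was 345 ± 35.6 CPM in WT and 78.3 ± 7.67 CPM in Exon2KO (SD, n = 3), a log2 fold change of -2.14 (SE 0.11), or 22.7% of the WT level. Itgae was a highly expressed gene in WT Tregs, at 75.4 ± 7.77 CPM per kilobase of its counted length (SD, n = 3), percentile 96.2 of the tested genes on that scale. In Exon2KO Tregs it stood at 17.1 ± 1.67 CPM per kilobase (SD, n = 3), percentile 78.1. Between libraries of the same number, WT exceeded Exon2KO by 4.20-fold for number 2, 3.85-fold for number 6 and 5.31-fold for number 20.

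Itgb7 (ENSMUSG00000001281, chr15:102215995-102231944, minus strand), the only chain that alpha E is known to pair with, was level between the genotypes. Its counts were 18683, 16355 and 21925 in WT against 17650, 17752 and 18645 in Exon2KO libraries, in the order 2, 6 and 20. These equalled 1003, 901 and 1029 CPM in WT, and 981, 911 and 1049 CPM in Exon2KO libraries. In both genotypes number 6 was the lowest and number 20 the highest. The means were 978 ± 67.7 and 980 ± 69.2 CPM (SD, n = 3), and the log2 fold change was 0.0038 (SE 0.088). Per length, Itgb7 was above the other 4 genes in every library, at 352.9 ± 24.5 CPM per kilobase in WT and 353.9 ± 25.0 in Exon2KO (SD, n = 3).

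Set against its partner, Itgae reached 0.213 ± 0.00749 of the Itgb7 level in WT and 0.0486 ± 0.00704 in Exon2KO libraries (ratio of CPM per kilobase, SD, n = 3). The competing partner Itga4, the alpha 4 chain, was measured at 45.0, 28.0 and 37.8 CPM per kilobase in WT 2, 6 and 20, and at 59.8, 51.7 and 48.9 in the Exon2KO libraries of those numbers. All Exon2KO libraries lay above all WT libraries for Itga4, but its log2 fold change of 0.53 was not called without a block (edgeR adjusted p = 0.208). It was called with the column number as a block (edgeR adjusted p = 0.0044) and with DESeq2 (adjusted p = 0.0171). Of the summed CPM per kilobase of Itgae and Itga4, Itgae made up 67.4 ± 3.53% in WT and 24.2 ± 0.739% in Exon2KO libraries (SD, n = 3). The share was above that of Itga4 in each WT library and below it in each Exon2KO library. In WT this order rests on the division by length, since the CPM of Itga4, which has the longer counted length, were 629, 391 and 528 in WT 2, 6 and 20, above those of Itgae. For Itgae that length joins the exons of all its transcripts, and for Itga4 it was not checked. The order by the length of the transcripts in use was not tested. Itgb1, the beta chain that alpha 4 also pairs with, spread widely within each genotype, from 85.0 to 131 CPM per kilobase in WT and from 59.7 to 101 in Exon2KO libraries, and was not called (log2 fold change -0.52, edgeR adjusted p = 0.510). Its log2 fold change was -0.80 (without Exon2KO 6) to -0.36 with 1 library left out and -0.21 without both libraries numbered 20.

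**Figure D2:**
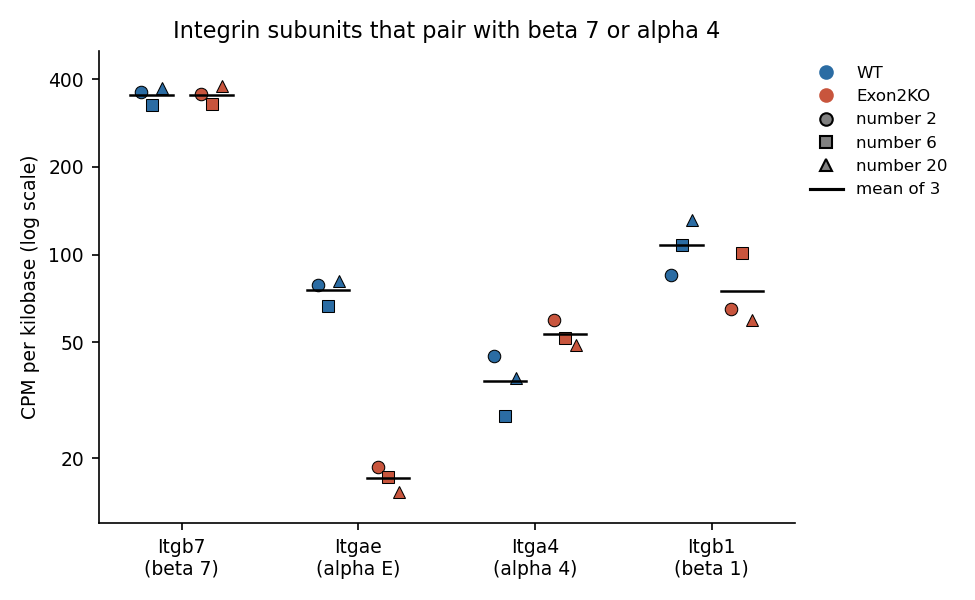
Level in CPM per kilobase (log axis) of the integrin chain genes Itgae, Itga4, Itgb7 and Itgb1 in 3 WT and 3 Exon2KO libraries; each point is a library, its shape gives the column number, and the line is the mean of 3. Itgae lies at 75.4 on average in WT and 17.1 in Exon2KO Tregs, while Itgb7 lies at 352.9 and 353.9.

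Klrg1 (ENSMUSG00000030114, chr6:122270596-122282882, minus strand) had the lowest Exon2KO to WT ratio of the 5 genes. It gave 449, 386 and 833 counts in WT 2, 6 and 20, and 41, 54 and 49 counts in Exon2KO 2, 6 and 20. In CPM the WT libraries were at 24.1, 21.3 and 39.1, and the Exon2KO libraries at 2.28, 2.77 and 2.76. WT 20 stood 1.84 times above the lowest WT library, the widest spread within a group among the 5 genes (coefficient of variation 34.0%), yet no WT library came near the Exon2KO range. The mean was 28.2 ± 9.58 CPM in WT and 2.60 ± 0.28 CPM in Exon2KO (SD, n = 3), a log2 fold change of -3.43 (SE 0.26), or 9.26% of the WT level. By CPM per kilobase it stood at percentile 81.2 of the tested genes in WT and at percentile 30.8 in Exon2KO libraries. Same-number folds of WT over Exon2KO were 10.6, 7.68 and 14.2 for numbers 2, 6 and 20. Without both libraries numbered 20 the log2 fold change was -3.16.

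Epcam (ENSMUSG00000045394, chr17:87635979-87651129, plus strand) was the lowest of the 5 genes in WT. Its counts were 244, 284 and 314 in WT 2, 6 and 20, and 81, 81 and 63 in the Exon2KO libraries of those numbers. They equalled 13.1, 15.6 and 14.7 CPM in WT, and 4.50, 4.15 and 3.54 CPM in Exon2KO libraries. Both groups were tight and stayed apart. The mean of 14.5 ± 1.29 CPM in WT stood against 4.07 ± 0.484 CPM in Exon2KO (SD, n = 3), a log2 fold change of -1.83 (SE 0.17), or 28.1% of the WT level. Markers of epithelial cells, in which EpCAM is abundant, were summed over 7 genes. The sum was 0.644 to 0.936 CPM in WT and 0.513 to 1.28 CPM in Exon2KO libraries. The keratins Krt8, Krt14 and Krt19 were at 0 in all libraries, and Krt5 had reads only in WT 6. Another keratin, Krt18, was found in every library, with 5 to 12 reads. Cldn7 gave 1 read per WT library, against 7, 2 and 5 for Exon2KO 2, 6 and 20. Cldn4 overlapped between the genotypes.

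Haspin (ENSMUSG00000050107, chr11:73135485-73138294, minus strand) is a gene of 1 exon that lies within intron 26 of the longer Itgae transcript, Itgae-201, which has 31 exons. That intron spans chr11:73134099-73138454, and Haspin shares 0 exon bases with Itgae. The 250 bases before its RefSeq start are printed because they run across the next exon of Itgae, exon 27, which begins 160 bases from the Haspin start. The sequence is from RefSeq (GRCm38.p6, chr11:73138295-73138544, minus strand, 5′ to 3′), and capitals mark the 57 bases of Itgae exon 27, read here on the strand opposite to Itgae.
Haspin: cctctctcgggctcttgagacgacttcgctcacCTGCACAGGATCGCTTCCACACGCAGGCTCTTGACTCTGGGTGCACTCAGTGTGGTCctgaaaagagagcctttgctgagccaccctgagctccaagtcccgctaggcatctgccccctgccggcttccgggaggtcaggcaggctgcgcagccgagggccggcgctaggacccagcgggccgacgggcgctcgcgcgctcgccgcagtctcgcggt
This stretch has 67.6% G and C and 23 CG pairs, against medians of 52% and 6 over the 27025 upstream windows of the same length.

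Haspin counts were 845, 689 and 968 in WT 2, 6 and 20, against 317, 303 and 281 in Exon2KO 2, 6 and 20. As CPM these were 45.4, 37.9 and 45.4 in WT, against 17.6, 15.5 and 15.8 for Exon2KO, with no overlap. The mean of 42.9 ± 4.30 CPM in WT and 16.3 ± 1.13 CPM in Exon2KO (SD, n = 3) gave a log2 fold change of -1.39 (SE 0.11), or 38.0% of the WT level. Per length, Haspin stood at 0.203 ± 0.00361 of the Itgae level in WT and at 0.341 ± 0.0242 in Exon2KO libraries (ratio of CPM per kilobase, SD, n = 3), and each Exon2KO library was above each WT library. Haspin and its host gene were therefore both lower, by unequal amounts. The library kit is not described as strand-specific and no strand setting of the counting is given in the sources used here, so reads of unspliced Itgae RNA that fall in the Haspin exon cannot be told apart from Haspin RNA. How much of the Haspin count they make up was not tested.

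Other genes of mitosis, the process in which Haspin acts, were compared with Haspin library by library. Of 15 listed mitotic kinases and partners, 14 were tested and 0 were called between genotypes, against 2.33% of all tested genes. Their log2 fold changes ran from -0.73 to -0.33 with a median of -0.44, against a median of 0.0084 over all tested genes. None of the 14 was as low as Haspin, but Haspin was chosen with this contrast known, so this is a description only. The median rested on single libraries: it was -0.051 without WT 20, -0.28 without Exon2KO 2, -0.73 without Exon2KO 20 and -0.66 without WT 2, and without both libraries numbered 20 it was -0.27. With the block on column number 6 were called, each lower, against 5.79% of all tested genes called lower in that fit. Between column numbers, 12 of the 14 differed, against 10.4% of all tested genes. Their level in WT 20 was 1.63 to 2.94 times the mean of WT 2 and WT 6 (median 2.03), and in Exon2KO 20 it was up to 2.24 times the mean of Exon2KO 2 and 6 (median 1.49). For Haspin these ratios were 1.09 and 0.954. Incenp, a subunit of the chromosomal passenger complex, had a log2 fold change of -0.37 (edgeR adjusted p = 0.680, with the block 0.0104). Bub1b, a kinase of the spindle checkpoint, had one of -0.53 (edgeR adjusted p = 0.729, with the block 0.00386). With 1 library left out, the log2 fold change ran from -0.55 to -0.092 for Incenp and from -0.82 to -0.10 for Bub1b.

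**Figure D3:**
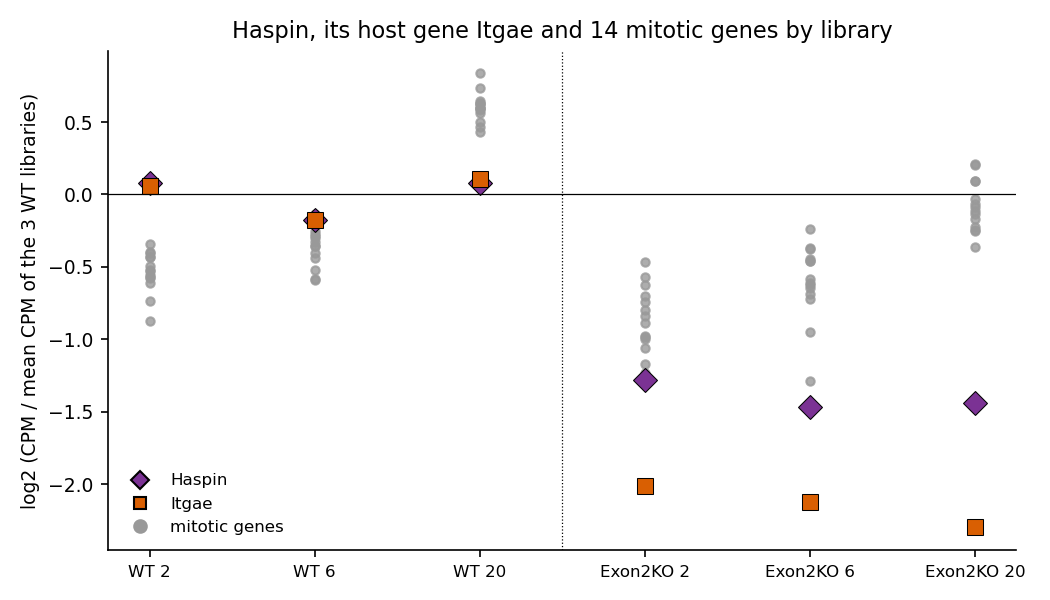
Level in each of the 6 libraries relative to the mean of the 3 WT libraries (log2 ratio of CPM) for Haspin, Itgae and 14 mitotic genes. As a group the mitotic genes are highest in the libraries numbered 20 of each genotype, whereas Haspin and Itgae are flat among the WT libraries and low in all Exon2KO libraries.

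The difference between column numbers is a measure that did not enter the choice of genes, and it was tested in the fit with genotype. Against a background of 10.4% of tested genes, 0 of the 5 genes were called. The edgeR adjusted p was 0.245 for Itgb7, 0.381 for Haspin, 0.479 for Itgae and 0.868 for Epcam. Klrg1 came closest, with an adjusted p of 0.0577 (edgeR, over all tested genes). This value depended on the settings. It was 0.0448 with a minimum of 10 counts in every library, 0.0177 with limma-voom, 0.00938 without Exon2KO 6 and 0.0325 without Exon2KO 20. It was 0.311 with DESeq2, 0.234 without Exon2KO 2, 0.401 without WT 2 and 0.952 without WT 20. Whether Klrg1 passed the threshold thus depended on these settings.

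Levels between genes were compared per length. In WT Tregs the order by mean CPM per kilobase was Itgb7 (352.9), Itgae (75.4), Klrg1 (19.9 ± 6.77), Haspin (15.3 ± 1.53) and Epcam (6.60 ± 0.586; SD, n = 3). Klrg1 and Haspin, neighbours in that order, differed by less than the SD of Klrg1 in WT. In Exon2KO Tregs the order was Itgb7 (353.9), Itgae (17.1), Haspin (5.81 ± 0.401), Epcam (1.85 ± 0.221) and Klrg1 (1.84 ± 0.198; SD, n = 3), with Epcam and Klrg1 within their spread. Klrg1 was the third of the 5 genes in WT and level with Epcam as the lowest in Exon2KO.

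**Figure D4:**
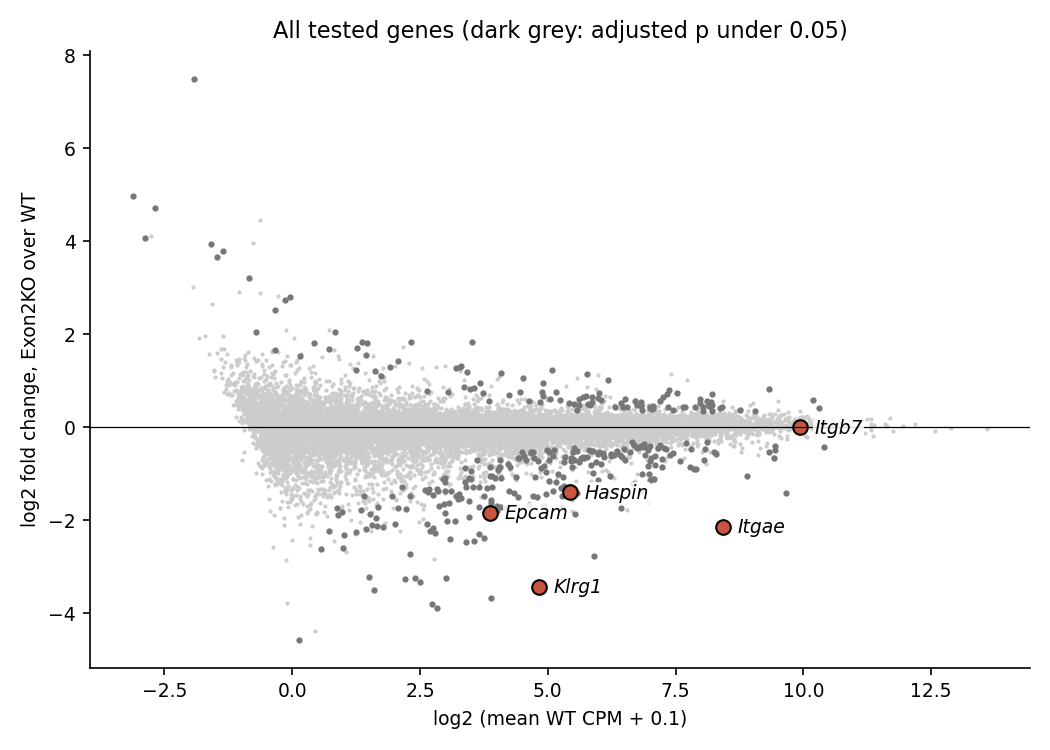
Log2 fold change of Exon2KO over WT (vertical axis) against the mean WT level (log2 of CPM plus 0.1, horizontal axis) for the 14919 tested genes, with called genes in dark grey and the 5 described genes named. Itgae and Klrg1 lie at the lower edge of the cloud for their level, at -2.14 and -3.43, and Itgb7 lies at 0.0038.

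Other cells carry the same receptors, and in bulk RNA fewer cells of a type cannot be told apart from less RNA per cell. CD8 T cells and some dendritic cells carry CD103, and NK cells carry KLRG1. The summed level of 2 CD8 T cell markers, both detected, was 10.3 to 11.3 CPM in WT and 7.85 to 12.5 CPM in Exon2KO libraries. For 6 dendritic cell markers, of which Cd207 was at 0, it was 6.80 to 7.62 CPM in WT and 5.11 to 5.18 CPM in Exon2KO libraries, lower in each Exon2KO library. By gene, only Zbtb46 was lower without overlap of the groups (mean 2.66 CPM in WT and 1.28 in Exon2KO). The groups overlapped for Itgax (2.82 and 2.03), Xcr1 (0.763 and 0.677), Clec9a (0.153 and 0.164) and Flt3 (0.905 and 0.989). For 5 NK cell markers, all detected, the summed level was 21.2 to 24.2 CPM in WT and 20.4 to 44.7 CPM in Exon2KO libraries (median 24.1). In Exon2KO 2, 6 and 20, Eomes gave 126, 438 and 127 counts and Prf1 gave 129, 296 and 112. Klrb1c was lower in Exon2KO without overlap of the groups (mean 2.86 CPM in WT and 1.71 in Exon2KO). The part of these cells in the levels of Itgae and Klrg1 was not tested.

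The cadherin ligands of these receptors had low counts in the sequenced cells. Cdh1, which encodes E-cadherin, was counted 8, 3 and 9 times in WT 2, 6 and 20 and 14, 6 and 10 times in the Exon2KO libraries, and did not pass the filter on low counts. N-cadherin (Cdh2) and R-cadherin (Cdh4), the other known ligands of KLRG1, had at most 2 counts in any library. Of 8 listed cadherin and catenin genes 5 were tested and 0 were called in either direction, against 2.33% of all tested genes. Their median log2 fold change was -0.018. The catenins Ctnnb1 and Ctnna1, which link cadherins to actin, had log2 fold changes of -0.018 and -0.13 (edgeR adjusted p = 0.970 and 0.797), and that of Ctnna1 ran from -0.23 to -0.021 with 1 library left out. With the block, Ctnnd1, a catenin that binds the cadherin tail, was called lower at 29, 19 and 19 counts in WT and 6, 1 and 5 counts in Exon2KO libraries (edgeR adjusted p = 0.012). Without the block it was not called by edgeR (adjusted p = 0.0878), but was with no filter on low counts (0.0191) and with DESeq2 (0.0492).

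Short lists of genes that act with the receptors inside the cell held 0 calls, which at 2.33% of all tested genes called says little about them. Of 9 listed genes of integrin pairing and activation, 7 were tested with a median log2 fold change of 0.06 and 0 calls; Itga4 was the 1 gene called with the block or with DESeq2. Talin, encoded by Tln1 and required to switch integrins on, had a log2 fold change of 0.06 (edgeR adjusted p = 0.878). For the 3 phosphatases that bind inhibitory motifs of the KLRG1 kind, all tested, 0 were called and the median was 0.19, or 0.12 to 0.26 with 1 library left out (lowest without Exon2KO 6). Ptpn6 (SHP-1) had a log2 fold change of 0.19 (edgeR adjusted p = 0.474) and Inpp5d (SHIP-1) one of -0.0095 (edgeR adjusted p = 0.983).

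Relatives of Klrg1 were also few among the tested genes. Of 22 listed killer cell lectin-like receptors and ligands, 21 were in the table, 10 passed the filter, 0 were called (2.33% of all tested genes were), and the median log2 fold change was -0.08. The most abundant were Clec2d and Clec2i, ligands of other receptors of the family, with log2 fold changes of -0.011 and -0.11 (edgeR adjusted p = 0.996 and 0.840). Both differed between column numbers (edgeR adjusted p = 3.5e-05 and 0.0161). Reads of near-identical Klr family members may be split or lost in counting, so counts of these relatives are uncertain.

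Among 18 genes of the TGF-beta pathway and of transcription factors tied to Itgae, all tested, 2 rose and 1 fell, against 0.757% and 1.58% of all tested genes. The median log2 fold change was 0.08 with all libraries and -0.017 without Exon2KO 6, and it lay between 0.0065 and 0.12 in the other fits that left out 1 library. Tgfbr2, a signalling receptor for TGF-beta, rose by 0.47 log2 units (SE 0.07; edgeR, adjusted p = 0.0125). Tgfbr1, its partner in the receptor complex, had a log2 fold change of -0.46 that was not called (adjusted p = 0.0854), though its groups did not overlap, and it was called lower with the block (adjusted p = 8.8e-05), with DESeq2 (0.0114), with no filter on low counts (0.0015), without Exon2KO 20 (0.0407) and without both libraries numbered 20 (0.0313). Smad7, an inhibitor of that pathway, rose by 0.45 (SE 0.09, adjusted p = 0.0324). Itgb8, whose integrin releases active TGF-beta from its latent form, fell by 0.99 on the log2 scale (SE 0.10, adjusted p = 0.00235), with counts of 1027, 1073 and 1364 in WT against 474, 629 and 555 in Exon2KO libraries. Runx3, a factor known to bind and regulate Itgae in T cells, had a log2 fold change of -0.47 that was not called (adjusted p = 0.059), but was called with the block (0.0135), with DESeq2 (0.00988) and with no filter on low counts (0.00207). Its counts were 1271, 1157 and 1686 in WT against 881, 1104 and 827 in Exon2KO libraries, and the CPM did not overlap. Smad3, which carries the TGF-beta signal to the nucleus, had a log2 fold change of -0.07 (adjusted p = 0.901). With the block 3 genes were called higher and 4 lower, against 3.93% and 5.79% of all tested genes, and with DESeq2 2 were called higher and 4 lower, against 1.49% and 2.93%. Between column numbers 3 of the 18 differed, against 10.4% of all tested genes. Tgfbr2 lost its call without WT 2, Exon2KO 2 or Exon2KO 6 (adjusted p up to 0.0699), and Smad7 without any 1 library other than Exon2KO 6 (up to 0.14) and without both libraries numbered 20 (0.0666).

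Of 22 genes listed for effector Tregs, the state that KLRG1 marks, all tested, 0 rose and 4 fell, against 0.757% and 1.58% of all tested genes. The list also holds regulators that are not markers of that state, such as Bach2 and Id3, and they enter its median. The median log2 fold change was -0.54, against 0.0084 over all tested genes. It was -0.94 without Exon2KO 6, and lay between -0.62 and -0.37 in the other fits that left out 1 library. The count that fell was 2 without WT 6 or without Exon2KO 2. Il1rl1, which encodes an alarmin receptor of tissue Tregs, gave 916, 925 and 1701 reads in the WT libraries against 118, 158 and 211 in the Exon2KO ones, and fell by 2.76 log2 units (adjusted p = 0.00638 in edgeR, SE 0.28). Like Klrg1 it was highest in WT 20, and it differed between column numbers (edgeR adjusted p = 0.000576). Ebi3, a cytokine subunit of Tregs, fell by 1.41 (SE 0.16, adjusted p = 0.00268). The antisense gene Gm16712 overlaps Ebi3 (296 counts over all libraries against 1590 for Ebi3), and because the strand setting of the counting is not given, reads in the shared stretch are uncertain. The transcription factors Batf and Gata3 fell by 0.58 and 0.48 (SE 0.12 and 0.10, adjusted p = 0.0459 and 0.0437). With the block 2 genes were called higher and 7 lower, against 3.93% and 5.79% of all tested genes. The 2 higher were Id2 and Bach2 (edgeR adjusted p = 0.0312 and 0.000107). Without the block their log2 fold changes were 0.43 and 0.49, and neither was called. DESeq2 called 1 higher and 9 lower, against 1.49% and 2.93% of all tested genes. Between column numbers 5 of the 22 differed, against 10.4% of all tested genes. Batf kept its call only without Exon2KO 6 and Gata3 only without Exon2KO 20 when 1 library was left out (adjusted p up to 0.199). Both calls were also lost with limma-voom (0.0621 and 0.0606) and without robust estimation (0.060 and 0.0594), and that of Batf without both libraries numbered 20 (0.185). Without both libraries numbered 20 the median was -0.29.

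Of 13 genes of tissue retention and recirculation 12 were tested, 2 rose and 1 fell, again against 0.757% and 1.58% of all tested genes, and the median log2 fold change was 0.17. S1pr1, the receptor by which T cells leave tissues, rose by 0.61 log2 units (adjusted p = 0.0159 in edgeR, SE 0.10). Klf2, a transcription factor that drives S1pr1, rose by 0.54 (SE 0.09, adjusted p = 0.0175). Gpr15, a colon-homing receptor, fell by 1.29 on the log2 scale (SE 0.28, adjusted p = 0.0497), at 183, 229 and 253 counts in WT and 92, 121 and 48 counts in Exon2KO libraries. Gpr15 overlaps Cpox on the other strand, so its counts are uncertain. Between column numbers 7 of the 12 genes differed, against 10.4% of all tested genes, and with the block 6 were called higher and 4 lower, against 3.93% and 5.79%. S1pr1 lost its call without WT 2, WT 6 or Exon2KO 2, Klf2 without WT 2, Exon2KO 2 or Exon2KO 6, and Gpr15 without WT 2, WT 6, WT 20 or Exon2KO 2 (adjusted p up to 0.0913, 0.0961 and 0.188). Gpr15 also lost it with RLE size factors (0.0511), limma-voom (0.0504) and no robust estimation (0.0649).

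Only 3 of 9 listed partners and proteases of EpCAM passed the filter, of which 1 rose and 1 fell, against 0.757% and 1.58% of all tested genes, with a median log2 fold change of -0.13. St14, the membrane protease matriptase, which is known to cleave EpCAM, fell by 1.73 log2 units (adjusted p = 0.00254 in edgeR, SE 0.19). Its counts were 289, 358 and 386 in WT 2, 6 and 20, against 115, 109 and 73 in Exon2KO 2, 6 and 20, as for Epcam with the lowest value in Exon2KO 20. Cd9, a tetraspanin, rose by a log2 fold change of 0.69 (SE 0.14, adjusted p = 0.0369) but lost its call without WT 2, WT 20, Exon2KO 2 or Exon2KO 6 (up to 0.171), without both libraries numbered 20 (0.0816) and without robust estimation (0.0501). Cd9 overlaps Gm28809 on the other strand.

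**Figure D5:**
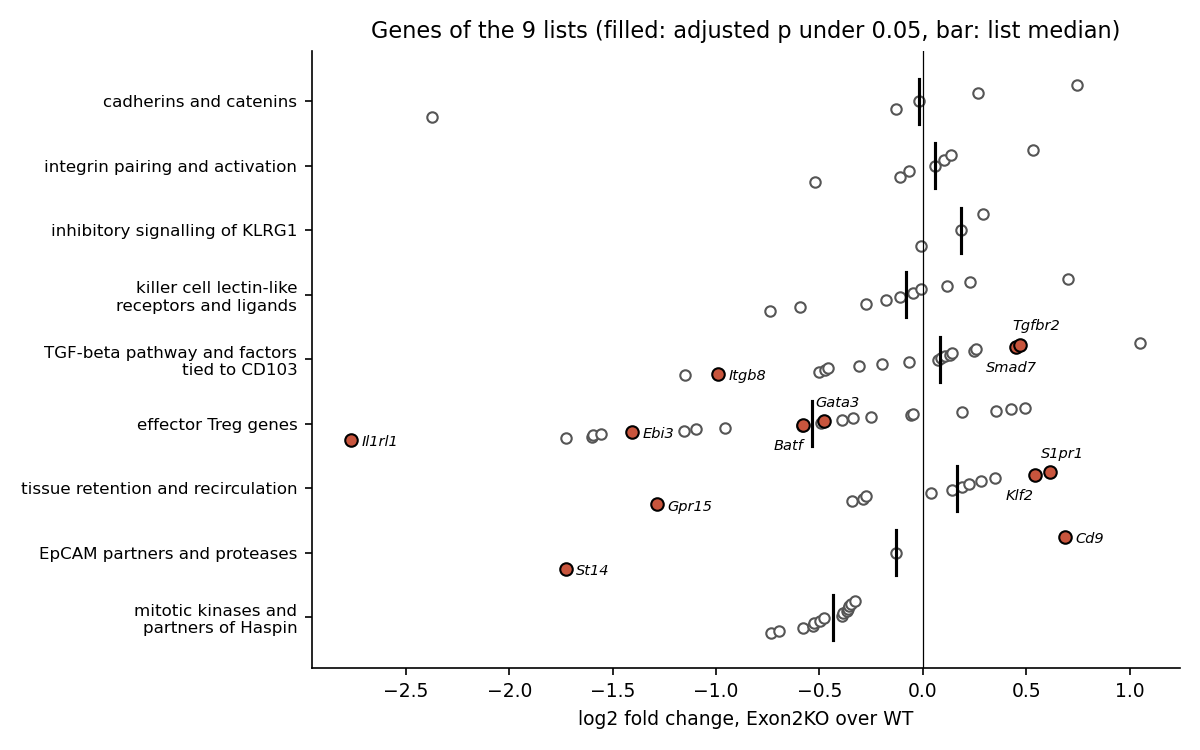
Log2 fold change of Exon2KO over WT (horizontal axis) for the tested genes of 9 lists; each circle is a gene, filled and named where edgeR's adjusted p was under 0.05, and the upright bar is the median of the list. The effector Treg list has a median of -0.54, and the cadherin, integrin, KLRG1 signalling, lectin-like receptor and mitotic lists hold no filled circle.

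Genes with the pattern most like Itgae and Klrg1 over the 6 libraries were found by Pearson's r of log2 CPM among 9365 tested genes with a mean of at least 5 CPM. Because the genotypes form separate clusters, r mainly measures how cleanly a gene splits by genotype, and it is given as a description. For Itgae the protein-coding genes with the highest r were Rhoh (0.997), Pnkd (0.997), Haspin (0.997), Gprasp2 (0.993) and Cysltr2 (0.992), and 8 genes had an r over 0.99. Pnkd overlaps Tmbim1 on the other strand, so its counts are uncertain, as are those of Gprasp2, which overlaps Bhlhb9 on the same strand (587 counts over all libraries against 2848 for Bhlhb9). For deviations from the group means, r with Itgae ran from 0.376 (Gprasp2) to 0.867 (Haspin, whose counts may hold Itgae reads). For Klrg1 they were Cysltr2 (0.997), Hpgds (0.997), Fuca2 (0.996), Fbxw8 (0.995) and Plxnd1 (0.995), and 13 genes had an r over 0.99. For deviations from the group means, r with Klrg1 ran from 0.873 to 0.943 over these 5 genes. In both sets the genes were picked by r over the same 6 libraries, so r of the deviations is not separate evidence. Cysltr2, a receptor for cysteinyl leukotrienes, was named for both members, at 13.4 ± 1.84 CPM in WT and 4.80 ± 0.283 CPM in Exon2KO (SD, n = 3).

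The bases before the starts of Itgb7 and Epcam are printed because one of these genes was level between genotypes and the other was not. Each is the 250 bases before the RefSeq start (GRCm38.p6, 5′ to 3′ on the strand of the gene), at chr15:102231936-102232185 on the minus strand and chr17:87635729-87635978 on the plus strand. Capitals mark matches to the searched motifs.
Itgb7: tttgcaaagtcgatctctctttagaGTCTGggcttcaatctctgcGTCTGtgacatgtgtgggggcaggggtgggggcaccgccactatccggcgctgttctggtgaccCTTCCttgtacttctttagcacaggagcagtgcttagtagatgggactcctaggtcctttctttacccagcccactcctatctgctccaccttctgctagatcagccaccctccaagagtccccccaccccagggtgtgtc
Epcam: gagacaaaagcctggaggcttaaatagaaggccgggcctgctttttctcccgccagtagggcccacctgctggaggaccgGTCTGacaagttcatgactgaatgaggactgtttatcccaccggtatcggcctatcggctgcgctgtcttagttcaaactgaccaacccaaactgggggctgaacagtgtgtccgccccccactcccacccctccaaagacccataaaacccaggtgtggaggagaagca
Both strands were searched for a forkhead motif (TGTTTAC, in 3.09% of the 27025 windows), a Runx motif (TGTGGT, 14.2%), a Smad half-site (CAGAC, 42.1%), a Smad pair (GTCTAGAC, 0.174%), a T-box motif (TCACAC, 12.2%), an AP-1 motif (TGANTCA, 6.87%) and an ETS motif (GGAAG, 63.6%). No match overlapped another. Itgb7 held a Smad half-site at positions -225 and -205 and an ETS match at -141, counted to the first base of the match from the start. Epcam held a Smad half-site at -170. In the Haspin window printed above, the Runx match lies at -167, inside the bases of Itgae exon 27, and ETS matches lie at -204 and -93. No forkhead, Smad pair, T-box or AP-1 match was found in these 3 windows. The half-site and the ETS motif occur in a large share of all windows, and a match is a description of letters only.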

How the data were processed

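RNA of 6 Treg libraries was sequenced. The submitters' processing notes name HISAT2 2.0.5, StringTie 1.3.3b, featureCounts 1.5.0-p3, DESeq2 1.16.1 and the build mm10 (GRCm38), with no role or strand setting. Per the file headers, the deposited table holds whole-number counts per gene for each library, and the gene length. Another 6 per-library columns of the table, a length-scaled form of the same libraries, were not used, since columns with a known genotype but no sample title were taken for 1 measure only. Genes were therefore compared as CPM per kilobase of the deposited length, in place of the planned deposited values. The authors also deposited group means (a scaled count signal), log2 fold changes and p-values for Exon2KO against WT. In the authors' deposited table the log2 fold changes were -2.14 for Itgae, 0.0058 for Itgb7, -3.43 for Klrg1, -1.83 for Epcam and -1.39 for Haspin; the deposited p-values and signal were not used.

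Counts were tested with edgeR 4.0.16 (R 4.3.3; filterByExpr, TMM scaling, robust quasi-likelihood F test) on all 6 libraries, two-sided, with Benjamini-Hochberg adjustment over all 14919 tested genes. No covariate was used in this main fit. The SE is the absolute log2 fold change divided by the root of F. DESeq2 1.42.0 and limma 3.58.1 were alternatives, with other filters and scalings, a replicate block and leaving out libraries. Log2 CPM used a prior count of 2. The members and lists were chosen with earlier results of these data known. Named genes are the members, the 5 genes most like Itgae and Klrg1, up to 4 called genes per direction of each list, or the 2 most abundant of a list with no call, and Itga4, Itgb1, Cdh1, Runx3 and Smad3. Ctnnd1, Tgfbr1, Foxp3, Il2ra, Ctla4, Ikzf2, Cd3e, Cd4, Cdh2 and Cdh4 fall outside that rule and were named after their values were seen. The same holds for Bach2, Id2, Id3 and the single dendritic cell markers.

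Column names carry the numbers 2, 6 and 20, each once per genotype, while sample titles number replicates from 1 to 3, so columns were assigned to a genotype only. Deviations from the group means of same-number libraries correlated at 0.271, 0.369 and 0.494, against -0.372 to 0.0538 for other pairs, so the numbers were taken to pair the libraries. The pairing comes from the data, and no label says what the numbers stand for. Same-genotype libraries differed beyond sampling noise (chi-square per degree of freedom 8.12 to 23.6), and all 6 were counted. Counted lengths of the 5 genes equal their GENCODE exon unions. The scripts were tested on simulated data. Upstream sequences were looked up for the 5 genes by symbol, and 3 matched.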

Additional observations from a re-analysis of the deposited data

How the results depend on the processing

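Over 15 alternatives the log2 fold changes of the 5 genes, which were chosen on this contrast, ran from -2.22 to -2.01 for Itgae, -3.60 to -3.12 for Klrg1, -1.91 to -1.73 for Epcam and -1.47 to -1.33 for Haspin. Itgb7 stayed between -0.052 and 0.044. The count of called genes, 348, became 617 with no filter on low counts, 660 with DESeq2, 1450 with the replicate block (paired by column number) and 86 to 314 with 1 library left out. The share called higher was 32.5% and became 40.4% with the block. Without both libraries numbered 20, an alternative chosen after seeing the data, 362 genes were called, 248 of them shared with the 348. The 1559 genes that differed between column numbers became 1000 with DESeq2 and 295 to 1610 with 1 library left out. Genes that were not called changed sign in places. With 1 library left out, log2 fold changes ran from -0.085 to 0.042 for Ctnnb1, -0.030 to 0.0021 for Inpp5d, -0.26 to 0.25 for Clec2d, -0.22 to 0.0024 for Clec2i and -0.14 to 0.065 for Smad3. Ctnnb1 was at 0.042, 0.0034 and 0.0067 without WT 6, Exon2KO 2 and Exon2KO 20, and Clec2d at 0.022, 0.25 and 0.20 without WT 2, WT 6 and Exon2KO 20. Clec2d was at 0.015 with limma-voom and 0.012 with the block, and without both libraries numbered 20 Inpp5d was at 0.013 and Smad3 at 0.057. List medians ran, with 1 library left out, from -0.085 to 0.042 for cadherins and catenins, -0.28 to 0.0030 for lectin-like receptors, 0.013 to 0.098 for integrin genes and -0.21 to -0.020 for EpCAM partners. The cause was not tested.

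With 3 libraries per genotype, p-values measure only the spread between libraries labelled as biological replicates. Klrg1 and Epcam in Exon2KO rest on 41 to 81 counts per library, so ratios between them are coarse. Counting strand is not given in the sources used here, which limits Haspin. The comparison of ratios on the deposited length-scaled values was not run.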
